A study of Mus musculus with 17 samples.

Results

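BAFF (gene Tnfsf13b) and APRIL (Tnfsf13) are ligands of the tumour necrosis factor family, and BAFF-R (Tnfrsf13c), TACI (Tnfrsf13b) and BCMA (Tnfrsf17) are their receptors. These 5 genes were taken by symbol from 17097 measured genes, each through the probe set that carried only that symbol and had the highest mean over the 17 arrays. The samples were cells sorted from NOD mice, an inbred strain whose males develop lymphocyte infiltrates in the lacrimal gland and which serves as a model of Sjögren's syndrome. No treatment or engineered allele is named for any group. The gland of 16-week-old males gave 4 arrays of B cells (CD45+ B220+ CD3-), 4 of CD4 T cells (CD45+ CD3+ CD4+) and 3 of epithelial cells (CD45- CD326+), and both lymphocyte gates were also negative for NKp46, CD11b and CD11c. The spleen gave 3 arrays of B cells and 3 of CD4 T cells, named as a steady-state control. The sample labels give the spleen donors as males of 16 weeks and the series text gives their age as 4 weeks, so an age difference may run along with tissue. The gland was digested with enzymes, while for the spleen the labels name no digestion. Nothing says that the replicates of a group came from separate mice, so every p-value rests on sample-to-sample spread alone, and that spread may be technical.

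BAFF is best known as the survival factor of mature B cells, and excess BAFF is linked to autoimmunity, Sjögren's syndrome included. It binds all 3 receptors, whereas APRIL binds TACI and BCMA and also the sugar chains of syndecans. BAFF-R acts through TRAF3 and the kinase NIK (Map3k14) on the alternative NF-kB pathway and keeps follicular B cells alive. TACI serves responses to antigens that need no T cell help and restrains B cell numbers, and BCMA supports long-lived plasma cells. Myeloid cells are the usual source of both ligands, and epithelial cells can also make them.

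The letters just upstream of the genes are shown because the ligands and receptors differed in which sorted cells carried them. All come from RefSeq's table for mouse build GRCm38.p6, in which all 5 genes had an entry with 6 listed start sites together. Only 250 bases before each start were searched, on both strands, for 5 motifs: STAT (TTCNNNGAA), IRF (GAAA, any 2 bases, GAAA), AP-1 (TGANTCA), ETS (GAGGAA) and the NF-kB consensus. Capitals mark a match. For Tnfsf13 the whole window is printed (chr11:69685555-69685804, minus strand), with 1 AP-1 match whose first base lies 133 bases before the start. For Tnfrsf13c the whole window is printed as well (chr15:82224381-82224630, minus strand), and it held no match to the 5 motifs. For Tnfsf13b and Tnfrsf17 30-base stretches around the matches are printed, from chr8:10006603-10006632 (IRF), chr8:10006495-10006524 (AP-1), chr16:11313698-11313727 (IRF) and chr16:11313677-11313706 (ETS), all in the plus strand's letters.
Tnfsf13: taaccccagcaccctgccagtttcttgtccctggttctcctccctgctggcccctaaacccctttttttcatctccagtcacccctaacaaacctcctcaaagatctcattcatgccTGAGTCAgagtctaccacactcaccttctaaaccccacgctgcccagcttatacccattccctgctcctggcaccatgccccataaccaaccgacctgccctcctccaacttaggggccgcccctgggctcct
Tnfrsf13c: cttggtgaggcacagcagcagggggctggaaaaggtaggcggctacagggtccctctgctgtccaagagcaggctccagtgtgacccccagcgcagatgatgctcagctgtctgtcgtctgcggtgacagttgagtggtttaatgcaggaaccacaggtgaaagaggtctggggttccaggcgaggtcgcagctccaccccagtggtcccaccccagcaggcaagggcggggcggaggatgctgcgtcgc
Tnfsf13b, IRF: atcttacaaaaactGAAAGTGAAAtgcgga
Tnfsf13b, AP-1: cttgtctggagTGAGTCAgtctgaacccca
Tnfrsf17, IRF: aaataggtggTTTCTGTTTCaggaatagtt
Tnfrsf17, ETS: tgggtggtaactTTCCTCtataaataggtg

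The Tnfsf13b matches belong to the second of its 2 listed starts, and the IRF match ends 7 bases before it. The 32536 distinct windows of the same length before listed starts held an IRF match in 2.98%, an AP-1 match in 6.73% and a STAT match in 7.04%. They held an NF-kB consensus match in 7.28% and an ETS match in 23.4%. The upstream windows of Tnfrsf13b and of the first Tnfsf13b start held none of the 5. The matches describe these letters only, and no binding was measured here.

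Values are the deposited log2 expression values, on which a difference of 1 is 2-fold. They carry no detection calls, so the median of all values, 4.71, serves as a mark of dim signal, and levels are compared only between groups for one gene. A difference was called where limma's adjusted p (Benjamini-Hochberg over all 17097 genes) was under 0.05 and its size at least 2-fold.

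The lineage markers fitted the sorts, with exceptions that touch several values. Of 7 measured B cell markers 6 were called higher in B than in CD4 T cells of either tissue. Pax5, which is dim on this array, was also higher but not called (5.14 against 4.16 in the gland, 4.97 against 4.21 in the spleen). All 7 T cell markers were higher in CD4 T cells, and all 7 epithelial markers in epithelium. The mean of the T cell list stood at 6.53 in epithelial replicate 1 against 3.99 and 4.13 in the other epithelial replicates, that of the natural killer list at 6.05 against 3.12 and 2.96, and that of the macrophage list at 6.16 against 4.55 and 4.87. The endothelial list was high in all 3 epithelial arrays (8.08 to 8.62, against 3.18 to 4.50 in lymphocytes). Tek and Emcn, which mark endothelium, stood above 9 in each. Of the list's 5 genes 5 were called higher in epithelium than in gland CD4 T cells, beside 14.8% of all genes. Against gland B cells 4 were, beside 16.2%, while Pecam1 was not called (7.14 against 7.63). Gland lymphocytes carried more epithelial marker signal (5.81 to 6.35) than spleen lymphocytes (3.89 to 4.03). The lacrimal secretory list (Obp1a, Ltf, Aqp5 and Pigr) stood at 8.21 to 8.72 in gland lymphocytes and 3.63 to 5.17 in spleen lymphocytes. In epithelium it stood at 10.95 to 11.13. Signal of immediate early genes, which respond within minutes to stimulation and cell handling, was also higher in gland lymphocytes (9.22 to 9.98 against 6.10 to 6.35). Differences of the 5 genes that rest on epithelial replicate 1 are given with and without it, and so are values of the named pathway genes where leaving it out moved a fold by over 1.5 times or ended a call.

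**Figure D1:**
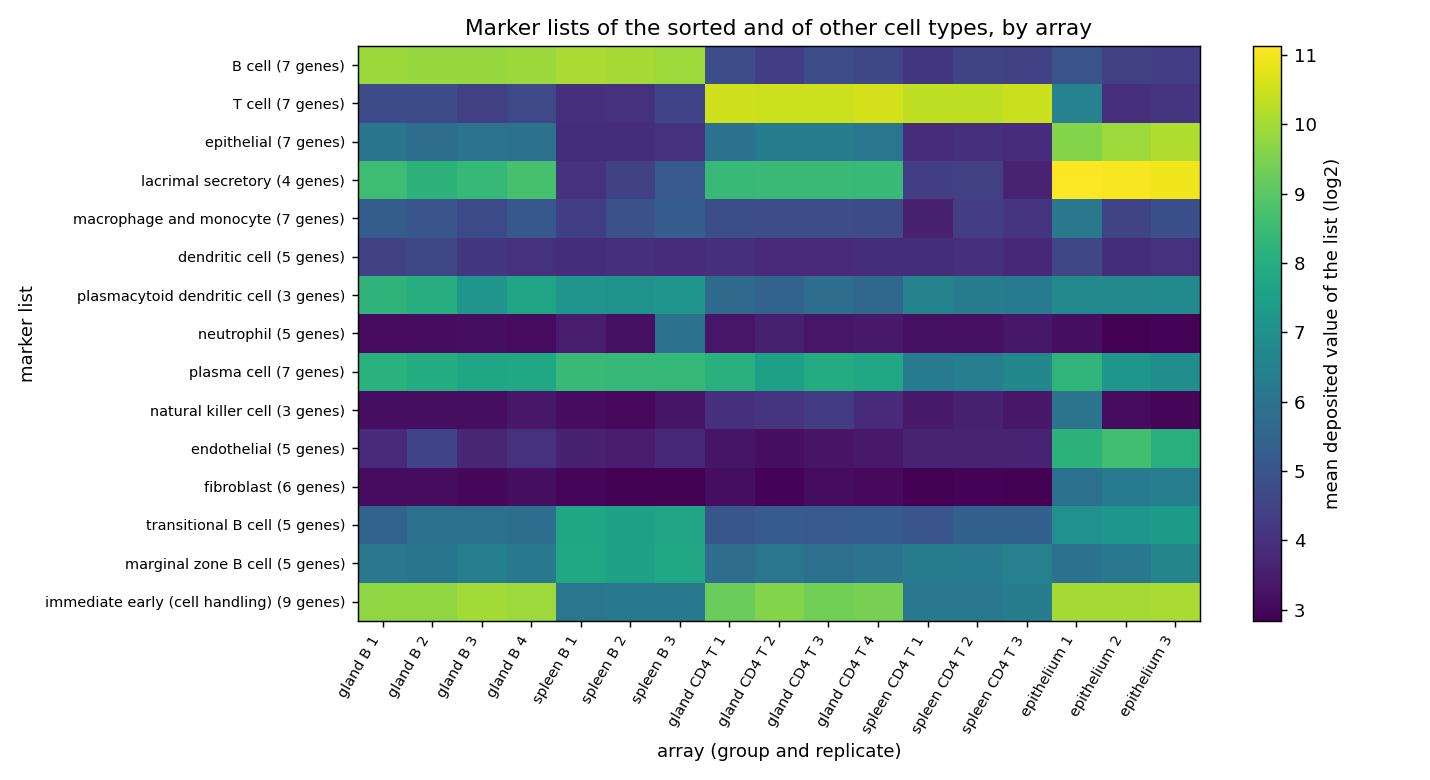
Mean log2 level of each marker list (rows) in each of the 17 arrays (columns, grouped by sorted population). Epithelial replicate 1 has T cell, natural killer and macrophage list means of 6.53, 6.05 and 6.16, above both other epithelial arrays, and spleen B cell replicate 3 has a neutrophil list mean of 5.97 against 3.23 and 3.46 in the other spleen B cell arrays.

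APRIL transcript was found mainly in the epithelial sort. Tnfsf13 (probe set 1418345_PM_at) stood at 8.65, 8.25 and 8.29 in epithelium (8.40 ± 0.22, SD, n = 3). In the gland it stood at 4.78, 4.71, 4.13 and 4.08 in B cells (4.42 ± 0.37, n = 4) and at 4.99, 3.83, 4.24 and 4.15 in CD4 T cells (4.30 ± 0.49, n = 4). The epithelial arrays lay far above every lymphocyte array, and the gland lymphocyte arrays lay near or below the median of all values. The level in epithelium was 15.7-fold that of gland B cells (log2 difference 3.97, SE 0.23, adjusted p = 3.66e-10, limma) and 17.1-fold that of gland CD4 T cells (4.09, SE 0.23, adjusted p = 2.88e-10). Without epithelial replicate 1 the differences were 3.85 and 3.97. The endothelial list was high in the same arrays, and the fibroblast list stood at 5.86 to 6.43 there against 2.84 to 3.17 in lymphocytes. Which cells of the sort carried the transcript was not tested.

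A second probe set, which the annotation assigns to Tnfsf13, its neighbour Tnfsf12 and the read-through gene Tnfsfm13 together, was left out of the gene's own values. It stood at 5.82 to 6.28 in epithelium and at 3.81 to 4.44 in lymphocytes, with no overlap. Its differences were 1.91 against gland B cells (adjusted p = 2.69e-09, limma over 29449 probe sets) and 1.97 against gland CD4 T cells (adjusted p = 2e-09), less than those of the probe set of Tnfsf13 alone. Tnfsf12 by itself was not analysed here.

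Within the lymphocytes Tnfsf13 was low throughout, and the gland arrays lay a little above the spleen arrays. Spleen B cells stood at 3.88, 3.66 and 3.62 (3.72 ± 0.14, n = 3) and spleen CD4 T cells at 3.47, 3.82 and 3.72 (3.67 ± 0.18, n = 3), with no overlap with the gland arrays of the same cell type. The gland against spleen difference was 0.70 in B cells (95% interval 0.21 to 1.20, adjusted p = 0.0492, limma) and 0.63 in CD4 T cells (0.14 to 1.13, adjusted p = 0.0621). Both were under 2-fold and neither was called. Gland lymphocytes also carried the epithelial signal given above. In replicates 1 to 4 the epithelial list mean was 6.08, 5.81, 6.004 and 5.95 in gland B cells and 5.94, 6.35, 6.35 and 6.11 in gland CD4 T cells. The dendritic cell list mean was 4.43, 4.65, 4.19 and 4.06 in gland B cells, and 3.91 to 4.01 in spleen B cells. Of its 5 measured genes Flt3 alone was called higher in the gland (5.30 against 3.78), beside 2.58% of all genes. Zbtb46 averaged 5.49 in gland and 5.84 in spleen B cells, Cd209a 3.77 and 3.15, Itgax 4.63 and 4.53, and Xcr1 2.47 and 2.41. The plasmacytoid dendritic cell list mean was 8.24, 8.02, 7.18 and 7.67 in gland B cells, and 7.11 to 7.17 in spleen B cells. Of its 3 measured genes Ccr9 alone was called higher there. Tcf4 averaged 9.23 in gland and 9.12 in spleen B cells, and Klk1 6.44 and 6.80. In CD4 T cells the dendritic cell list mean was 3.82 to 3.99 (gland) and 3.76 to 4.00 (spleen). The plasmacytoid list mean was lower in CD4 T cells of the gland (5.47 to 5.80) than of the spleen (6.22 to 6.56). The part of these cells in the Tnfsf13 signal was not tested, and in bulk samples more cells of a type and more RNA per cell cannot be told apart.

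BAFF transcript was highest in CD4 T cells of the gland. Tnfsf13b (1460255_PM_at) stood at 6.51, 6.69, 6.88 and 6.72 in gland CD4 T cells (6.70 ± 0.15, n = 4) and at 4.68, 4.59 and 4.63 in spleen CD4 T cells (4.63 ± 0.043, n = 3). All 4 gland arrays lay above all other arrays of the study, and the spleen arrays lay just under the median of all values. The gland level was 4.18-fold the spleen level (2.06, SE 0.32, adjusted p = 0.000158, limma). In B cells it stood at 4.89, 5.11, 5.20 and 4.78 in the gland (4.995 ± 0.195, n = 4) and at 4.68, 3.92 and 4.75 in the spleen (4.45 ± 0.46, n = 3). The B cell arrays of the tissues did not overlap by a narrow margin, and the difference of 0.54 was not called (95% interval -0.13 to 1.22, adjusted p = 0.284). Without epithelial replicate 1 the fit gave the same difference an adjusted p of 0.0343, still under 2-fold.

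The gland against spleen difference of Tnfsf13b was itself smaller in B than in CD4 T cells, by 1.52 on the log2 scale (SE 0.45, adjusted p = 0.0425, limma). That call was lost on leaving out any of 12 of the 14 lymphocyte arrays, with quantile normalization (adjusted p = 0.0515) and with the replicate number as a block (adjusted p = 0.0556). Without epithelial replicate 1, which widens the spread shared by all groups, its adjusted p was 0.000462. Within the gland CD4 T cells stood 3.25-fold above B cells (B minus CD4 T -1.70, SE 0.29, adjusted p = 0.000275), while in the spleen the 2 cell types overlapped (-0.18, 95% interval -0.91 to 0.54, adjusted p = 0.811).

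Tnfsf13b in epithelium depended on 1 array. It stood at 5.99 in replicate 1 and at 4.18 and 4.39 in the others (4.86 ± 0.99, n = 3), and the 2 other arrays lay under the median of all values. Epithelium was 3.58-fold lower than gland CD4 T cells (-1.84, SE 0.32, adjusted p = 0.000108, limma), and lower by more without replicate 1 (-2.41). Against gland B cells the difference was -0.14 (95% interval -0.82 to 0.54, adjusted p = 0.717), and -0.71 without replicate 1 (adjusted p = 0.00482, under 2-fold). Replicate 1 is the epithelial array with the T cell, natural killer and macrophage signal.

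The macrophage and monocyte markers, a usual source of BAFF, were read beside these values. Their mean was 4.76 to 4.83 in gland CD4 T cells and 3.61 to 4.36 in spleen CD4 T cells. Of 7 measured markers 1, Cd14, was called higher in the gland (4.99 to 5.66 against 3.66 to 4.31). Cd14 was higher still in epithelium (8.40 to 8.67), and gland lymphocytes carried epithelial marker signal. At an unadjusted p under 0.05 limma gave 3 of the 7 higher, Cd14, Lyz2 (6.46 to 7.34 against 2.23 to 5.91) and Cd68 (5.94 to 7.18 against 5.29 to 5.80), and 0 lower. Over all genes 5.35% were called higher, and by the unadjusted rule 16.4% were higher and 16.5% lower. Csf1r, a growth factor receptor of macrophages, stood at 3.96 to 4.19 in CD4 T cells of the gland and at 4.10 to 4.16 in those of the spleen. It was dim throughout, with means of 4.08 (spleen B cells) to 4.33 (epithelium), all under the median of all values. In B cells the list mean was 4.70 to 5.30 (gland) and 4.39 to 5.24 (spleen). Their part in the Tnfsf13b difference was not tested.

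The Tnfsf13b pattern rests on its brightest probe set. The probe sets 1445251_PM_at and 1458047_PM_at, also assigned to Tnfsf13b alone, were dim in every group, with means of 2.90 to 3.10 and of 1.57 to 2.55. In CD4 T cells the first showed a difference of 0.14 (adjusted p = 0.624, limma) and the second of 0.61 (adjusted p = 0.00219, under 2-fold).

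**Figure D2:**
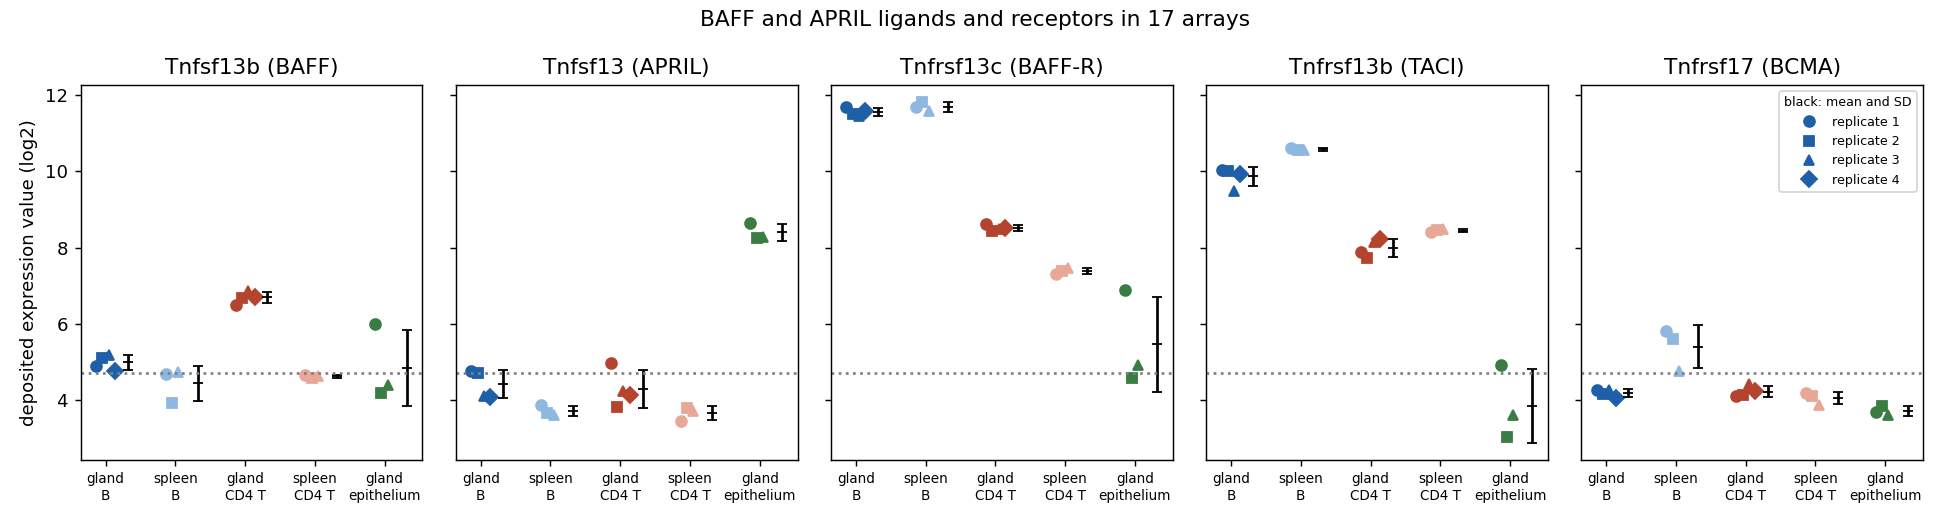
Log2 level of each of the 5 genes (panels) in every array (points), by sorted population, with black bars for the group means and their SD and a dotted line at the median of all values, 4.71. Tnfsf13 lies above 8 only in the 3 epithelial arrays, Tnfsf13b above 6.5 only in the 4 gland CD4 T cell arrays, and Tnfrsf13c above 11 only in the 7 B cell arrays.

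BAFF-R transcript was high in B cells of both tissues. Tnfrsf13c (1419307_PM_at) stood at 11.68, 11.50, 11.43 and 11.59 in gland B cells (11.55 ± 0.11, n = 4) and at 11.67, 11.81 and 11.56 in spleen B cells (11.68 ± 0.12, n = 3). These arrays overlapped, and the difference of -0.13 was not called (95% interval -0.88 to 0.62, adjusted p = 0.857, limma). B cells exceeded CD4 T cells 8.21-fold in the gland (3.04, SE 0.33, adjusted p = 1.85e-06) and 19.6-fold in the spleen (4.29, SE 0.38, adjusted p = 2.13e-07).

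CD4 T cells carried a lower BAFF-R signal, which was higher in the gland. Tnfrsf13c stood at 8.63, 8.43, 8.49 and 8.51 in gland CD4 T cells (8.51 ± 0.084, n = 4) and at 7.32, 7.39 and 7.46 in spleen CD4 T cells (7.39 ± 0.070, n = 3). The groups were narrow and did not overlap. The gland level was 2.18-fold the spleen level (1.12, SE 0.35, adjusted p = 0.0304, limma), close to the 2-fold minimum, and the adjusted p rose to between 0.0555 and 0.0888 on leaving out any of 6 of the 7 CD4 T cell arrays. Without epithelial replicate 1 it was 4.16e-07. The B cell list mean beside it was 4.39 to 4.81 in the gland and 4.19 to 4.55 in the spleen, and 0 of its 7 genes were called by limma. At an unadjusted p under 0.05 limma gave 2 of them, Blk and Cd22, higher, beside 16.4% of all genes. In gland replicates 1 to 4 the list mean was 4.81, 4.39, 4.81 and 4.64. Of its genes Ms4a1, which encodes CD20, was lowest in replicate 2 (2.82), while Pax5 was highest there (4.38). The part of B cell RNA in the Tnfrsf13c difference was not tested.

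The gland against spleen differences of Tnfrsf13c in the 2 cell types were set against each other (B minus CD4 T), which gave -1.25 and was not called (SE 0.50, adjusted p = 0.144, limma). Without epithelial replicate 1 it was called (adjusted p = 1.5e-05). In epithelium Tnfrsf13c stood at 6.89 in replicate 1 and at 4.58 and 4.93 in the others (5.47 ± 1.24, n = 3), 68.0-fold under gland B cells (-6.09, SE 0.35, adjusted p = 3.39e-10) and 8.27-fold under gland CD4 T cells (-3.05, SE 0.35, adjusted p = 1.55e-06). Without replicate 1 these differences were -6.80 and -3.76. Of the 2 other arrays 1 lay under the median of all values and 1 just above it, so these folds are ratios of deposited values, with no expression above background shown for epithelium.

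TACI transcript was also highest in B cells, with CD4 T cells next. Tnfrsf13b (1423182_PM_at) stood at 10.04, 10.00, 9.48 and 9.94 in gland B cells (9.86 ± 0.26, n = 4) and at 10.61, 10.55 and 10.56 in spleen B cells (10.57 ± 0.032, n = 3). In CD4 T cells it stood at 7.88, 7.72, 8.14 and 8.24 in the gland (7.99 ± 0.24, n = 4) and at 8.40, 8.45 and 8.48 in the spleen (8.45 ± 0.041, n = 3). In both cell types every gland array lay below every spleen array, the reverse of the order of BAFF-R in CD4 T cells. B cells exceeded CD4 T cells 3.65-fold in the gland (1.87, SE 0.28, adjusted p = 6.11e-05, limma) and 4.36-fold in the spleen (2.12, SE 0.32, adjusted p = 8.89e-05).

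The lower TACI signal of the gland was not called in either cell type. The difference was -0.71 in B cells (95% interval -1.34 to -0.07, adjusted p = 0.124, limma) and -0.45 in CD4 T cells (-1.09 to 0.19, adjusted p = 0.336). Without epithelial replicate 1 the adjusted p was 0.0052 and 0.0483, with both differences still under 2-fold. In epithelium Tnfrsf13b stood at 4.93 in replicate 1 and at 3.04 and 3.62 in the others (3.87 ± 0.97, n = 3). That was 63.9-fold under gland B cells (-6.00, SE 0.30, adjusted p = 5.28e-11) and 17.5-fold under gland CD4 T cells (-4.13, SE 0.30, adjusted p = 5.79e-09), and without replicate 1 the differences were -6.53 and -4.66. The 2 other arrays lay under the median of all values, so these too are ratios of deposited values.

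Of the 5 groups, spleen B cells alone had a mean BCMA transcript level above the median of all values. Tnfrsf17 (1420782_PM_at) stood at 5.83, 5.61 and 4.77 in spleen B cells (5.40 ± 0.56, n = 3) and at 4.26, 4.16, 4.28 and 4.06 in gland B cells (4.19 ± 0.10, n = 4). The groups did not overlap, and the spleen arrays spread widely. Gland B cells were 2.31-fold lower (-1.21, SE 0.18, adjusted p = 0.00027, limma). Without spleen replicate 1, the highest, the difference was -0.998 and just missed the 2-fold minimum. In spleen B cells it stood 2.53-fold above spleen CD4 T cells (1.34, SE 0.20, adjusted p = 6.38e-05), which stood at 4.20, 4.11 and 3.88 (4.06 ± 0.17, n = 3).

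In the gland the BCMA arrays of B and CD4 T cells overlapped. Gland CD4 T cells stood at 4.13, 4.14, 4.42 and 4.24 (4.23 ± 0.14, n = 4), with a B minus CD4 T difference of -0.04 (95% interval -0.40 to 0.32, adjusted p = 0.904, limma). Between gland and spleen CD4 T cells it was 0.17 (-0.22 to 0.56, adjusted p = 0.601). The gland against spleen difference was thus lower in B than in CD4 T cells, by 1.38 (SE 0.26, adjusted p = 0.00213). Epithelium stood at 3.70, 3.86 and 3.61 (3.73 ± 0.13, n = 3), lower than gland B cells by 0.47 (adjusted p = 0.035) and than gland CD4 T cells by 0.51 (adjusted p = 0.0262), both under 2-fold and both between signals under the median of all values. With epithelial replicate 1 left out they were -0.46 (adjusted p = 0.075) and -0.49 (adjusted p = 0.0601).

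Other B cell subset markers moved beside the BCMA difference. Of the transitional B cell list 4 of 5 genes and of the marginal zone B cell list 4 of 5 were lower in B cells of the gland than in those of the spleen, with list means of 5.48 to 5.88 against 7.59 to 7.71 and of 6.07 to 6.42 against 7.59 to 7.82. Of 7 measured plasma cell markers 0 were called by limma in that comparison, and the list mean was 7.71 to 8.14 in the gland and 8.36 to 8.46 in the spleen. At an unadjusted p under 0.05 limma gave 2 of the 7 lower, beside 16% of all genes. Jchain was called lower without epithelial replicate 1. Spleen B cell replicate 3, the lowest in Tnfrsf17, was also the array with neutrophil signal (S100a8 at 9.63 against 3.32 and 3.59). The part of cell makeup in the Tnfrsf17 difference was not tested. In gland CD4 T cells the plasma cell list stood above that of the spleen (7.57 to 8.11 against 6.26 to 6.69). Of its 7 genes 4 were called higher (Jchain, Xbp1, Prdm1 and Irf4) and 0 lower, beside 5.35% and 1.62% of all genes. Jchain, which joins secreted antibody chains, stood at 8.32 to 9.54 against 4.26 to 6.85. The 3 others, Derl3, Fkbp11 and Txndc5, were not called, and Txndc5 averaged lower in the gland (6.60 against 6.80). Tnfrsf17 stayed under the median of all values in CD4 T cells of both tissues.

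Counted over comparisons, the 5 genes were called as follows. Between gland and spleen B cells 0 were higher and 1 lower, where 2.58% of all genes were called higher and 1.60% lower. Between gland and spleen CD4 T cells 2 were higher and 0 lower, against 5.35% and 1.62% of all genes. For the difference between these changes 0 were higher and 2 lower in B cells, against 1.22% and 3.87%. The median of the 5 differences was -0.13 for B cells and 0.63 for CD4 T cells, beside 0.00 and -0.03 over all genes.

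Between gland B and CD4 T cells 2 of the 5 genes were higher in B cells and 1 lower, against 3.73% and 5.97% of all genes. In the spleen 3 were higher and 0 lower, against 4.63% and 4.52%. In epithelium against gland B cells 1 was higher and 2 lower, against 16.2% and 10.4% of all genes. Against gland CD4 T cells 1 was higher and 3 lower, against 14.8% and 10.6%. At an unadjusted p under 0.05 and with no fold minimum, limma gave 1 higher and 2 lower for B cells, where 13.4% of all genes were higher and 16.0% lower by that rule. It gave 3 and 0 for CD4 T cells (16.4% and 16.5%), 0 and 3 for the difference of the changes (9.67% and 12.2%), and 3 and 0 between the spleen groups (15.2% each way). With 5 genes these shares describe the set and carry no test.

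**Figure D3:**
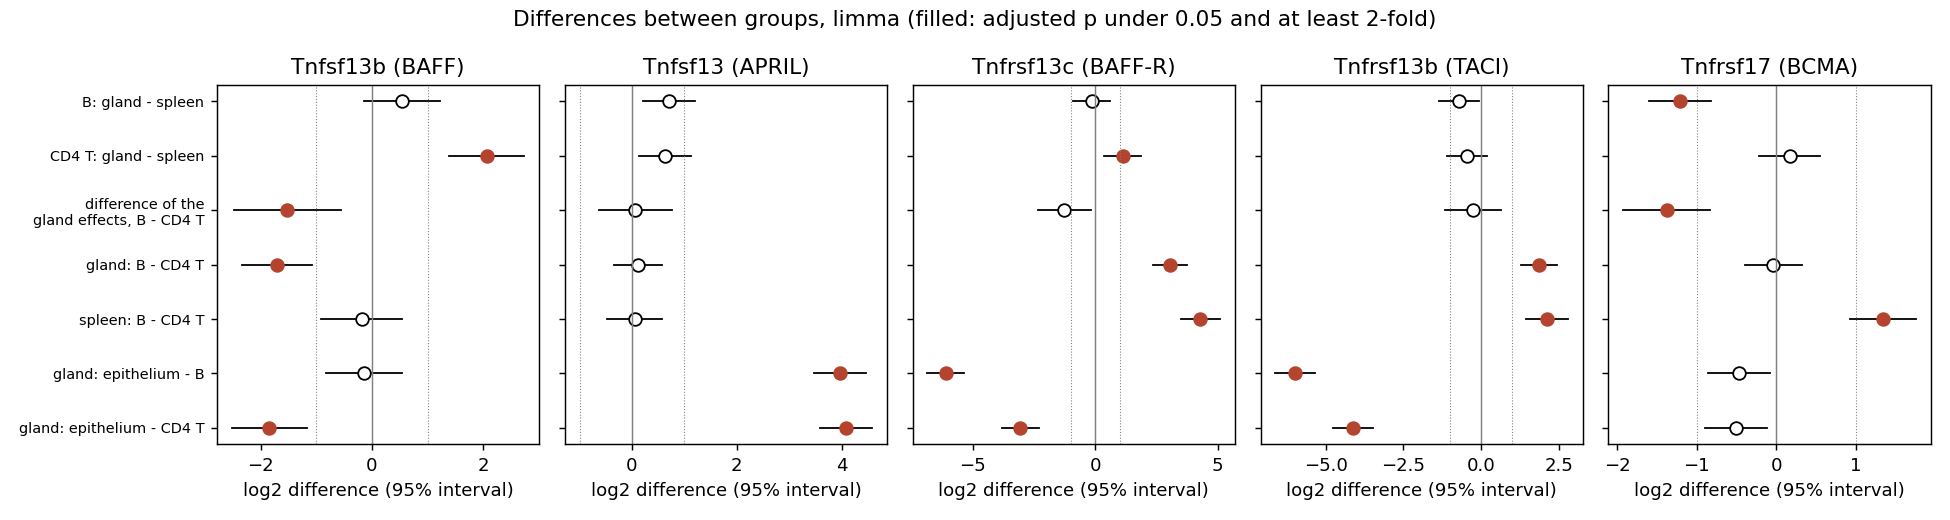
Log2 difference of each of the 5 genes in each of the 7 comparisons, with 95% intervals from limma (filled points were called). Tnfsf13 has its called differences in the epithelial comparisons (3.97 and 4.09), Tnfsf13b has 2.06 in gland against spleen CD4 T cells, and Tnfrsf17 has -1.21 in gland against spleen B cells.

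The order of the groups differed from gene to gene. For Tnfsf13 epithelium came first, and the 4 lymphocyte groups followed with each neighbour overlapping the next. For Tnfsf13b gland CD4 T cells came first, and the other 4 groups overlapped their neighbours. For Tnfrsf13c both B cell groups overlapped at the top, followed without overlap by gland CD4 T cells, spleen CD4 T cells and epithelium. For Tnfrsf13b no neighbours overlapped, in the order spleen B, gland B, spleen CD4 T, gland CD4 T, epithelium. For Tnfrsf17 spleen B cells came first without overlap, and the 3 other lymphocyte groups overlapped their neighbours.

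Genes with the most similar pattern over the 17 arrays were taken by Pearson's r among 11090 genes whose mean passed 4.71 in at least 1 group. The arrays fall into 5 sorted groups, so a high r mostly restates the group means and has no p. For Tnfsf13 these were Fut4 (r = 0.996), a fucosyltransferase, Hsbp1l1 (0.995), Tpd52l1 (0.995), Ccdc149 (0.995) and Prom2 (0.994), a membrane protein of epithelial cells. Fut4 averaged 8.56 ± 0.27 in epithelium, 5.03 ± 0.47 in gland B cells and 4.81 ± 0.63 in gland CD4 T cells. For Tnfsf13b they were Havcr2 (0.937), which encodes the inhibitory receptor TIM-3, Stard4 (0.935), Tgfbr1 (0.931), a receptor kinase for TGF-beta, Clip3 (0.924) and Ifng (0.922), the cytokine interferon gamma. Havcr2 averaged 5.68 ± 0.34 in gland CD4 T cells and 3.13 ± 0.10 in spleen CD4 T cells.

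Among the receptors, Tnfrsf13c was most like B3gnt5 (0.987), Fcrl1 (0.984), an Fc receptor-like protein of B cells, Mif4gd (0.982), Mirt1 (0.981) and Ccr6 (0.979), a chemokine receptor. Fcrl1 had the same order, with 10.63 ± 0.073 (gland) and 10.66 ± 0.044 (spleen) in B cells, 7.67 ± 0.13 and 5.96 ± 0.18 likewise in CD4 T cells, and 4.26 ± 0.25 in epithelium. Tnfrsf13b was most like Ptpn6 (0.994), the phosphatase SHP-1, Sipa1 (0.990), Noxred1 (0.988), Armt1 (0.985) and Ikzf3 (0.984), the transcription factor Aiolos. Tnfrsf17 was most like Spdl1 (0.941), Ffar2 (0.889), which senses short-chain fatty acids, Dnase1l3 (0.883), Tsga13 (0.879) and Cfp (0.870), the complement factor properdin. Between the 5 genes r was highest for Tnfrsf13c and Tnfrsf13b (0.911) and lowest for Tnfsf13 and Tnfrsf13b (-0.870), and it was -0.06 for the 2 ligands.

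The rest of the pathway was read through 5 lists of 63 genes, of which 52 were measured. In CD4 T cells 12 rose and 1 fell from spleen to gland, with a median difference of 0.19, whereas in B cells 3 rose (Rel, Il10 and Tlr7) and 0 fell, with a median of 0.08. In the direct test 7 of the 52 were lower and 1 higher in the B cell change than in the CD4 T cell change. Over all genes, with every array fitted, 5.35% were called higher and 1.62% lower in CD4 T cells, and 2.58% and 1.60% in B cells. For the direct test the shares were 1.22% higher and 3.87% lower. In epithelium 16.2% of all genes were called higher and 10.4% lower than in gland B cells, and 14.8% and 10.6% than in gland CD4 T cells. The list counts below stand beside these shares. When epithelial replicate 1 was left out, 13 rose and 1 fell in CD4 T cells, the count in B cells was still 3 and 0, and the direct test gave 7 lower and 2 higher.

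Among genes for processing and binding of the ligands 2 of 9 rose in gland CD4 T cells and 0 fell. Sdc4, a syndecan of the kind whose sugar chains bind APRIL, stood at 8.10 to 8.76 in CD4 T cells of the gland and 5.50 to 6.05 in those of the spleen, a 6.12-fold increase (2.61), and Tnfrsf12a, the receptor of TWEAK, was 2.10-fold higher. In B cells Sdc4 was high in both tissues (10.47 ± 0.11 and 10.16 ± 0.10), and its change was smaller than in CD4 T cells by 2.30. In epithelium it averaged 10.68 ± 0.12, 5.18-fold above gland CD4 T cells. These T cell arrays carried the epithelial signal given above, and its part in their Sdc4 difference was not tested. Furin, the protease that cuts BAFF and APRIL free, was 2.32-fold higher in epithelium than in gland B cells. For Aph1a and Psen2, subunits of the gamma-secretase that sheds BCMA, epithelium was 2.51-fold higher and 2.93-fold lower than gland B cells.

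Of 16 measured adaptors and kinases 1 rose in gland CD4 T cells (Otud7b, a deubiquitinase acting on TRAF3, 2.17-fold) and 0 fell. In B cells 0 of 16 were called by limma. At an unadjusted p under 0.05 it gave 3 higher and 2 lower, beside 13.4% and 16% of all genes. Btk, the kinase of the B cell receptor, was 76.6-fold higher in gland B than in gland CD4 T cells, and Syk, which acts upstream of it, 5.35-fold. Traf1, induced by NF-kB, was 2.72-fold lower in gland B than in gland CD4 T cells. In epithelium 9 of the 16 were lower than in gland B cells and 0 higher, led by Btk, Pik3cd, Traf1 and Traf5. Traf1 (23.98-fold), Pik3cd (13.6-fold) and Traf5 (4.99-fold) were also lower in epithelium than in gland CD4 T cells, where 7 of 16 were lower and 0 higher. The counts without epithelial replicate 1 were also 9 and 7, and against gland CD4 T cells the folds were 40.9 for Traf1, 22.9 for Pik3cd and 5.30 for Traf5. Traf2 lost its call in that comparison (from 2.004-fold to 1.94-fold lower) and Traf6 gained one (2.31-fold lower). For CD4 T cells from spleen to gland Traf1 was then called as well (2.25-fold higher), which made 2 of 16. Traf3, Chuk and Camlg were not analysed here.

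The NF-kB genes moved in CD4 T cells. Of 5 measured genes 4 rose in the gland and 0 fell: Rel (2.67), Nfkbia (1.91), which encodes an inhibitor induced by NF-kB itself, Nfkb2 (1.32) and Relb (1.07), the subunits of the alternative pathway. In B cells Rel rose (1.95) and the 4 others were not called. Nfkb1 was not analysed here. Nfkb2 overlapped between gland and spleen B cells (8.22 ± 0.16 and 8.21 ± 0.19), whose means lay above those of gland (7.76 ± 0.35) and spleen CD4 T cells (6.44 ± 0.21), and its change was lower in B than in CD4 T cells by 1.31. The immediate early genes were higher in the same gland arrays, in both cell types, and their part in these differences was not tested.

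**Figure D4:**
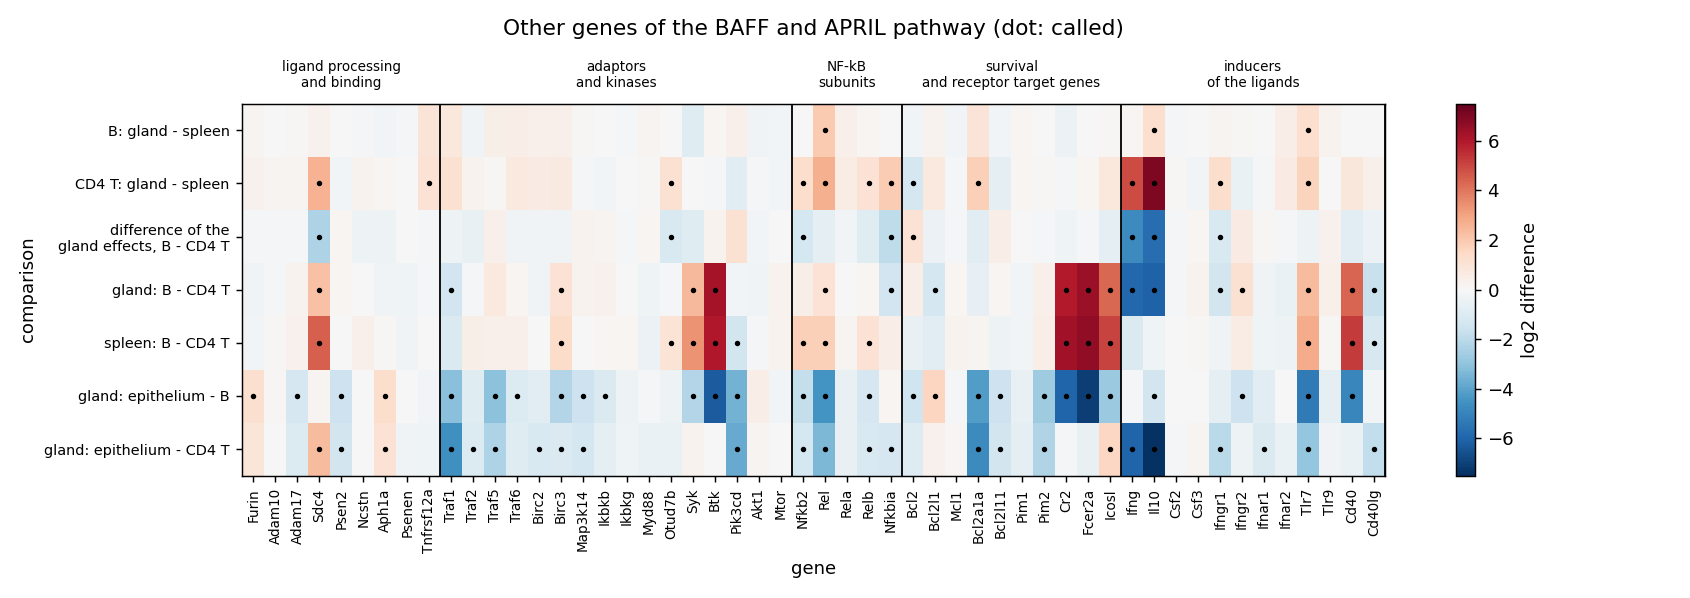
Log2 differences (colour) of the measured pathway genes (columns, by list) in each of the 7 comparisons (rows), with a dot where a difference was called. Il10 (6.97), Ifng (4.91), Rel (2.67) and Sdc4 (2.61) have the largest differences between gland and spleen CD4 T cells, and Rel (1.95) between the B cells.

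Of 10 measured survival genes and receptor targets 1 rose (Bcl2a1a, a BCL2 relative, 3.44-fold) and 1 fell (Bcl2, 2.45-fold) in gland CD4 T cells. In B cells 0 were called by limma. At an unadjusted p under 0.05 it gave 1 higher and 2 lower, beside 13.4% and 16% of all genes. Bcl2a1a averaged 10.92 ± 0.048 in CD4 T cells of the gland and 9.14 ± 0.11 in those of the spleen. Its adjusted p was 0.038 (limma), and its near-identical copies Bcl2a1b and Bcl2a1d were not analysed here. Cr2 and Fcer2a, surface proteins of mature B cells that encode CD21 and CD23, exceeded gland CD4 T cells 61.8-fold and 90.6-fold in gland B cells. The ligand of ICOS (Icosl) was 20.2-fold higher in gland B than in gland CD4 T cells. In epithelium 7 of 10 were lower than in gland B cells and 1 higher, the survival gene Bcl2l1 (3.07-fold).

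Of 12 measured genes of inducers of the ligands and their receptors 4 rose in gland CD4 T cells and 0 fell. Interferon gamma and interleukin 10 are known inducers of BAFF in myeloid cells. Il10 averaged 9.34 ± 0.10 in CD4 T cells of the gland and 2.37 ± 0.36 in those of the spleen, a difference of 6.97, and Ifng differed by 4.91. Ifngr1, a chain of the interferon gamma receptor, was 2.51-fold higher, and Tlr7, a sensor of single-stranded RNA, 3.14-fold. In B cells Tlr7 rose 2.43-fold and Il10 2.36-fold, the latter between signals under the median of all values (3.27 and 2.03). Cd40, which cooperates with BAFF-R in B cells, was 20.4-fold higher in gland B than in gland CD4 T cells, and its ligand Cd40lg 3.12-fold lower. In epithelium 0 of 12 were higher than in gland B cells and 4 lower, and 0 were higher and 6 lower than in gland CD4 T cells. Leaving out epithelial replicate 1, 5 were lower than in gland B cells, the fifth being Ifng (4.09-fold lower, against 1.10-fold with it).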

How the data were processed

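The deposited table holds log2 values of 45141 probe sets in 17 arrays, and the authors used Partek and RMA per the submitters' processing notes. Array, build and software versions are not given in the sources used here. Per the labels, sorts were over 99% pure, and 3 RNA samples, not matched to arrays, had integrity numbers of 7.8, 7.7 and 7.2. Groups were read from the sample titles. Probe sets were named through the platform annotation, and 28898 carried 1 symbol. limma 3.58.1 (R 4.3.3) fitted the 5 group means to all 17 arrays, with 12 residual and 3.17 prior degrees of freedom. Named genes were the 5 members, the 5 genes nearest to each in pattern, up to 4 called genes with the largest difference per list and comparison, and markers. Fcrl1, Havcr2 and Fut4 levels and the single markers were picked after their values were seen. Members and lists were chosen with earlier results of these data known. On simulated data 96% to 100% of genes shifted by 2 were recovered, with 0 to 3 false calls in 17097 genes. Of genes shifted by 1.5, 89% to 98% were recovered, the lowest for the difference of the changes. Alternatives covered the fold minimum, a dim-gene filter, probe set choice, centring, quantile normalization, variance settings, replicate block, arrays fitted and leaving out each array. Arrays carry no depth, and their number limits the precision. Figures were drawn with matplotlib 3.10.9.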

Additional observations from a re-analysis of the deposited data

Results flagged for a closer look

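The gland against spleen difference of the BAFF gene Tnfsf13b was lower for B cells (0.54) than for CD4 T cells (2.06), and the test of that difference gave -1.52 (SE 0.45, limma adjusted p = 0.0425). For the BCMA gene Tnfrsf17 the B cell change was also the lower, with -1.21 for B cells and 0.17 for CD4 T cells, and the test of the difference gave -1.38 (SE 0.26, limma adjusted p = 0.00213). The probe set shared by Tnfsf13, Tnfsf12 and Tnfsfm13, which enters no gene's values, stood 2.10 higher in epithelium than in the mean of the spleen groups.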

How the results depend on the processing

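Among 7 comparisons, no called difference of the 5 genes changed sign under the alternatives run. Without a fold minimum the counts of called genes were 3019 (gland against spleen B cells), 3995 (CD4 T cells), 1731 (difference of the changes), 5196 (gland B against CD4 T), 3843 (spleen B against CD4 T), 10897 and 9955 (epithelium against gland B and CD4 T cells), and the adjusted p alone also passed Tnfsf13 in B cells (0.70) and Tnfrsf17 in epithelium (-0.47 and -0.51). Taking the mean of its probe sets put Tnfsf13b under 2-fold in CD4 T cells (0.94), in the difference of the changes (-0.73) and in gland B against CD4 T cells (-0.80). By themselves its probe sets 1445251_PM_at and 1458047_PM_at, examined after seeing the data, gave 0.14 and 0.61, -0.027 and -0.65, and -0.080 and -0.63 in these comparisons, and -0.20 and -0.98 in epithelium against gland CD4 T cells. For 1458047_PM_at the uncalled differences in B cells (-0.043) and in spleen B against CD4 T cells (0.027) had the opposite sign.

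The difference of the Tnfsf13b changes was -1.49 (adjusted p = 0.0515) with quantile normalization and -1.52 (adjusted p = 0.0556) with the replicate number as a block. The block changed no other call. Deviations of same-numbered arrays correlated between -0.397 and 0.215, and in no pair of groups were all above 0.1. With 3 or 4 such pairs per pair of groups, this cannot decide whether same-numbered samples share a mouse or pool. The main fit did not pair them. The difference of the Tnfrsf13c changes (-1.25) was called with only the compared groups fitted (adjusted p = 7.19e-06) and, an alternative chosen after seeing the data, without epithelial replicate 1; the first fit has fewer samples. Other causes were not tested.

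Leaving out each array in turn, Tnfrsf17 in B cells ran from -1.53 to -0.998, Tnfrsf13c in CD4 T cells from 1.09 to 1.16, and the differences of the changes from -1.79 to -1.37 (Tnfsf13b), -1.31 to -1.19 (Tnfrsf13c) and -0.093 to 0.29 (Tnfsf13). The Tnfsf13b difference kept its call without gland B cell replicate 3 or spleen B cell replicate 2, and without epithelial replicate 1. Uncalled values crossed 0 for Tnfsf13 (-0.040 to 0.35) and Tnfrsf17 (-0.072 to 0.025) in gland B against CD4 T cells, for Tnfsf13b (-0.33 to 0.083) and Tnfsf13 (-0.046 to 0.13) in spleen B against CD4 T cells and for Tnfsf13b in epithelium against gland B cells (-0.71 to 0.20). Signals under the median of all values limit the Tnfrsf17 and lymphocyte Tnfsf13 differences, and those of epithelial Tnfrsf13b, Tnfrsf13c and Tnfsf13b, since RMA values carry no background calls.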
